A study of Mus musculus with 16 samples.

Results

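All collagen chain genes were followed through 3 comparisons in mouse cardiac fibroblasts: Tcf21 deletion in uninjured hearts, Tcf21 deletion under a fibrotic infusion, and TCF21 gain under the same infusion. A gene was taken as a member when its symbol had the form of Col1a1 (Col, a number, a, a number) in any of the 3 deposited tables of normalized counts. This gave 42 of the 19707 genes listed. They were grouped into 11 fibrillar, 6 basement membrane, 8 FACIT (fibril-associated collagens with interrupted triple helices), 3 short chain and 2 multiplexin genes. The other 5 beaded filament, 4 transmembrane and 3 anchoring fibril or other genes fall outside those 5 classes. The uninjured and infused deletion tables list 39 members each and 41 are in the gain table, with 36 in all 3. Col2a1, Col10a1 and Col24a1 are not listed in the uninjured table, Col4a2, Col6a1 and Col25a1 not in the infused deletion table, and Col10a1 not in the gain table.

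Collagens are triple helices of 3 alpha chains. The fibrillar types I and III form the load-bearing fibres of the heart wall, and types V and XI start fibrils and limit their width. Type IV forms the sheet of basement membranes, FACIT chains coat fibrils, type VI forms beaded filaments around cells, and the multiplexins XV and XVIII link basement membranes to the matrix beneath. Cardiac fibroblasts are the main makers of fibrillar collagen in the heart, and TCF21 belongs to the basic helix-loop-helix family of DNA-binding factors and marks that lineage.

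Fibroblasts were sorted by flow cytometry from mice of 8 to 12 weeks through a Rosa26 EGFP reporter, which stays off until Cre removes a stop cassette, and every mouse received tamoxifen. The uninjured groups were Tcf21-MerCreMer controls (3 libraries) and Tcf21-MerCreMer:Tcf21-fl mice (3 libraries, called Tcf21-deleted), sampled 2 weeks after tamoxifen. The same 2 genotypes, with 3 control and 2 Tcf21-deleted libraries, were sampled after 1 week of angiotensin II and phenylephrine, agents that drive cardiac fibrosis. The gain groups had the same infusion: 3 libraries of Pdgfra-creERT controls and 2 of Pdgfra-creERT:Col1a1-TCF21 mice (called TCF21 transgene). Only cells in which the reporter had recombined were sorted, so the Tcf21 arm samples cells that had used the Tcf21 promoter and the gain arm cells that had used Pdgfra. The transgene is labelled by the name of a member, Col1a1, and the labels do not say whether that allele alters the Col1a1 gene, which the controls carry without it.

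The 16 libraries summed to 27814940 to 40970391 normalized counts. Tcf21 itself ran from 1244 to 1718 in uninjured deleted libraries against 7507 to 8081 in controls, from 185 to 258 against 1510 to 2814 under infusion, and from 13502 to 14820 against 5145 to 6235 with the transgene. The labels do not tie libraries to animals, and each p-value therefore reflects the spread among these libraries, which may be technical. In sorted bulk RNA, fewer cells of one kind and less RNA per cell cannot be told apart. The fibroblast marker list was listed in full (12 of 12 genes), with summed levels of 540800 to 4078000. Cardiomyocyte markers summed to 532.5 to 1079, and 6 of 8 epicardial markers in the uninjured table and 7 of 8 in both others were not listed. The 3 tables were normalized separately, so levels set side by side across them are not on a common scale. Between the infused controls of both tables, 36 of 38 collagen genes lay within 4-fold, and Col8a2 (147 against 20546 normalized counts) and Col4a6 (36.1 against 1396) did not. The labels do not say whether the tables share gene models, so the values of these 2 genes in the infused deletion table may not measure the same transcripts as elsewhere. Erythroid and platelet markers, low throughout, did not overlap under infusion: their sum was 182.5 to 504 after deletion against 71.1 to 78.6, and 201 to 283 with the transgene against 72.4 to 134. Cardiomyocyte sums were higher with the transgene (1005 to 1079 against 778.1 to 865.3) and mural sums lower (26010 to 28710 against 32280 to 38700). In infused deletion, endothelial (2859 to 3304 against 3744 to 6767) and Schwann cell sums (1049 to 1112 against 1505 to 2222) lay lower. Myeloid sums did too (472.1 to 767.9 against 863 to 1012). Fibroblast sums overlapped in each comparison. The part of these lists in the collagen values was not tested.

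Collagen transcripts made up 2.86% ± 0.211 (SD, n = 3) of all normalized counts in uninjured controls and 2.83% ± 0.482 (n = 3) after deletion. Under infusion the share was 10.8% ± 0.875 (n = 3) in controls and 12.5% ± 1.36 (n = 2) after deletion, and 10.6% ± 1.67 (n = 3) in Pdgfra-creERT controls and 9.40% ± 0.95 (n = 2) with the transgene. The infused deleted libraries, at 11.5% and 13.4%, lay above their controls, whose highest was 11.4%. In the other 2 comparisons the groups overlapped. The infused deletion shares lack Col6a1 and Col4a2, which that table does not list. These averaged 152066 and 85569 normalized counts in Pdgfra-creERT controls, so the shares of different tables do not cover the same members. Fibrillar chains took most of the share in every library.

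**Figure D1:**
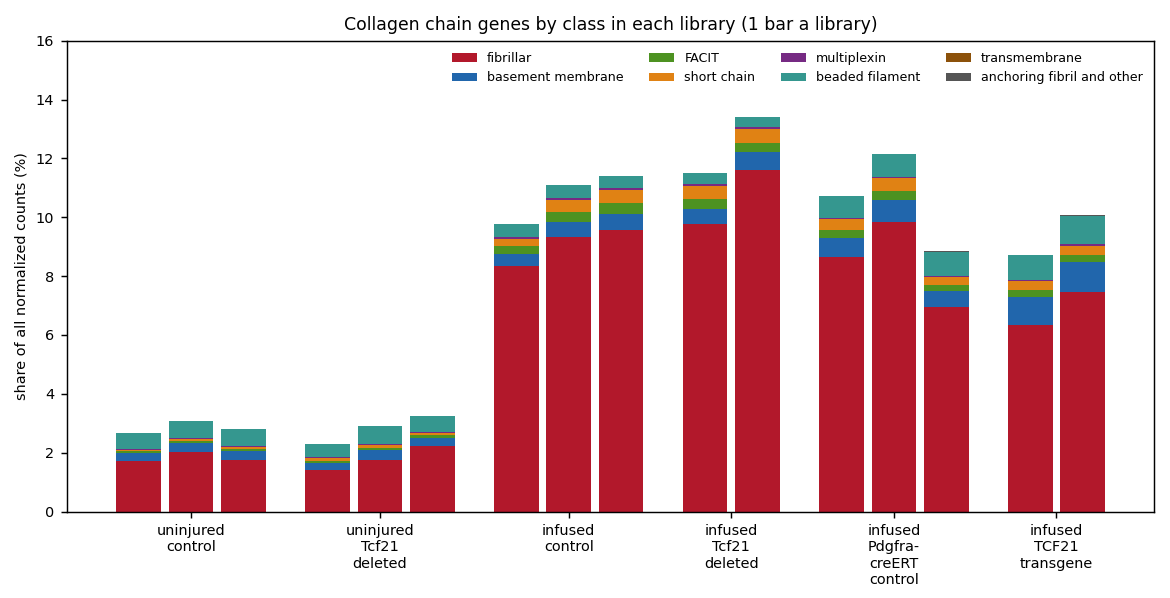
Share of all normalized counts (%) taken by collagen chain genes in each of the 16 libraries, 1 bar a library, stacked by collagen class. The uninjured libraries lie between 2.31% and 3.26% and the infused ones between 8.72% and 13.4%, with the fibrillar class forming most of each bar. The bars of the infused deletion table lack Col4a2 and Col6a1, which it does not list.

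Divided by the length of a reference transcript, Col3a1 (the type III chain) stood highest in the controls of every table. In uninjured controls it reached 69297 ± 8016 normalized counts per kilobase (SD, n = 3). Col1a2 (25223 ± 1915) and Col6a1 (25056 ± 826) came next and overlapped. Col6a2 (17622 ± 398) and Col1a1 (16562 ± 1431) followed, and overlapped each other. In infused Tcf21-MerCreMer controls Col3a1 (223705 ± 12367) was followed by Col1a1 (105695 ± 6889) and Col1a2 (103652 ± 10619), which overlapped. In Pdgfra-creERT controls the order was Col3a1 (325036 ± 64674), Col1a2 (141657 ± 28416) and Col1a1 (109898 ± 17765), of which the last 2 overlapped. Type III and type I chains thus led under infusion, and in uninjured controls Col6a1, which the infused deletion table does not list, stood level with Col1a2. At the other end, 12, 9 and 6 listed collagen genes had a control mean under 100 normalized counts in the uninjured, infused deletion and gain tables.

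**Figure D2:**
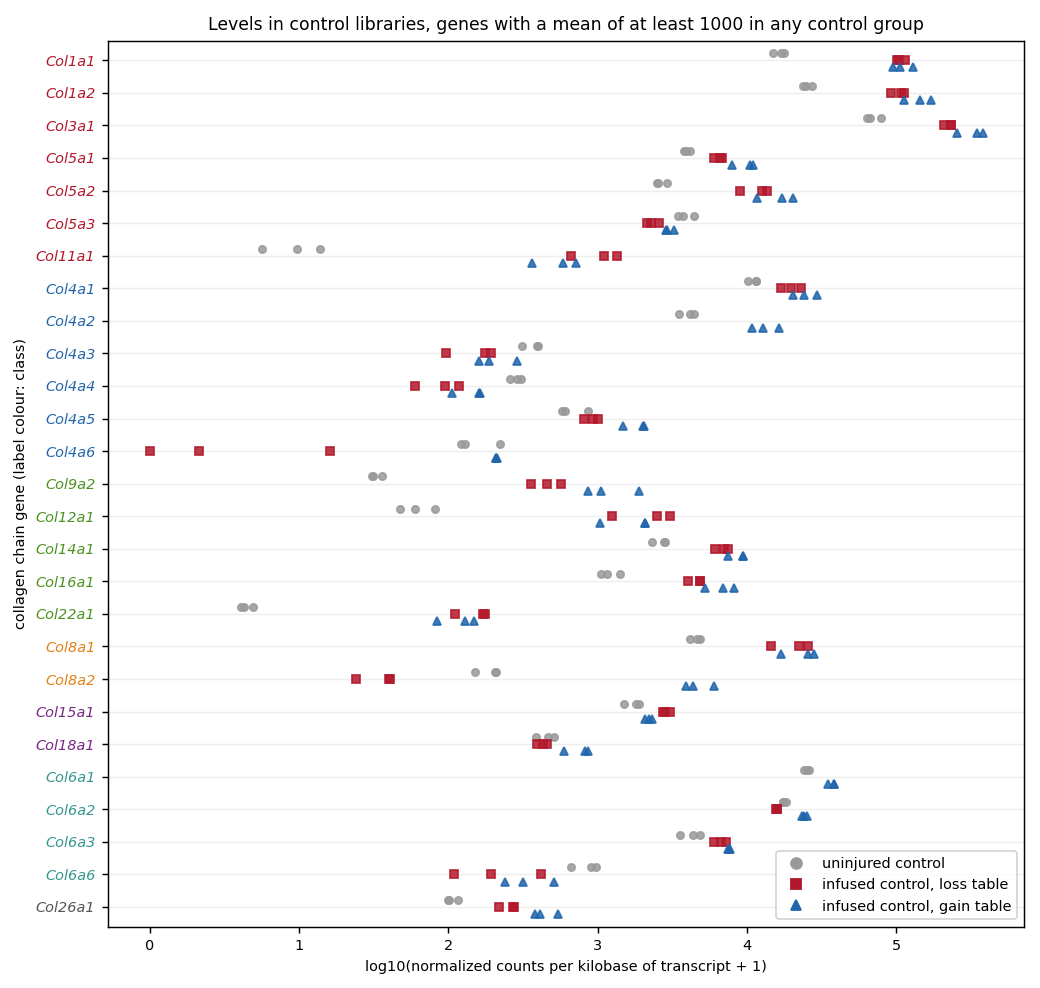
Levels of collagen chain genes in the 9 control libraries, as log10(normalized counts per kilobase of transcript + 1), for genes with a mean of at least 1000 normalized counts in any control group. Grey circles are uninjured controls, red squares infused controls of the deletion table and blue triangles those of the gain table; Col3a1 is highest in each, and Col8a2 and Col4a6 lie far apart between both infused sets.

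A gene was tested where its table mean was at least 10, with limma on log2(normalized count + 1), and called when the Benjamini-Hochberg adjusted p over all genes of the table was below 0.05. Of the 35 collagen genes tested in uninjured fibroblasts, 4 were called (11.4%), against 3.58% of all 15544 genes tested. Col8a2 and Col28a1 rose, against 1.63% of all genes, and Col4a5 and Col20a1 fell, against 1.96%. Col28a1, with a control mean of 1.81, met the filter only through its deleted libraries. Of 37 tested under infusion, deletion changed 0, against 0.912% of all genes, with 7 at an unadjusted p under 0.05. With all groups in one fit 1 was called, and with replicate number as a block, which takes control 3 out of the effect, 8 were. Of 40 tested in the gain comparison, 6 were called (15%), against 4.14% of all genes. Col18a1, Col26a1 and Col28a1 rose, against 1.57% of all genes that rose, and Col22a1, Col6a6 and Col8a2 fell, against 2.57%. Genes under the mean of 10, with values in every library at or under 21.2, were Col7a1, Col9a1, Col9a3 and Col25a1 in the uninjured table, Col9a1 and Col10a1 in the infused deletion table and Col25a1 in the gain table.

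The median log2 fold change of the tested collagen genes was 0.013 in uninjured deletion, -0.083 in infused deletion and -0.15 in gain, beside -0.012, 0.00017 and 0.0066 over all genes. Groups did not overlap for 11 of 35, 13 of 37 and 24 of 40 collagen genes, against 27.7%, 35.0% and 39.3% of all genes. Of those 24 in the gain comparison, 11 were higher with the transgene and 13 lower, against 19.1% and 20.1% of all genes.

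**Figure D3:**
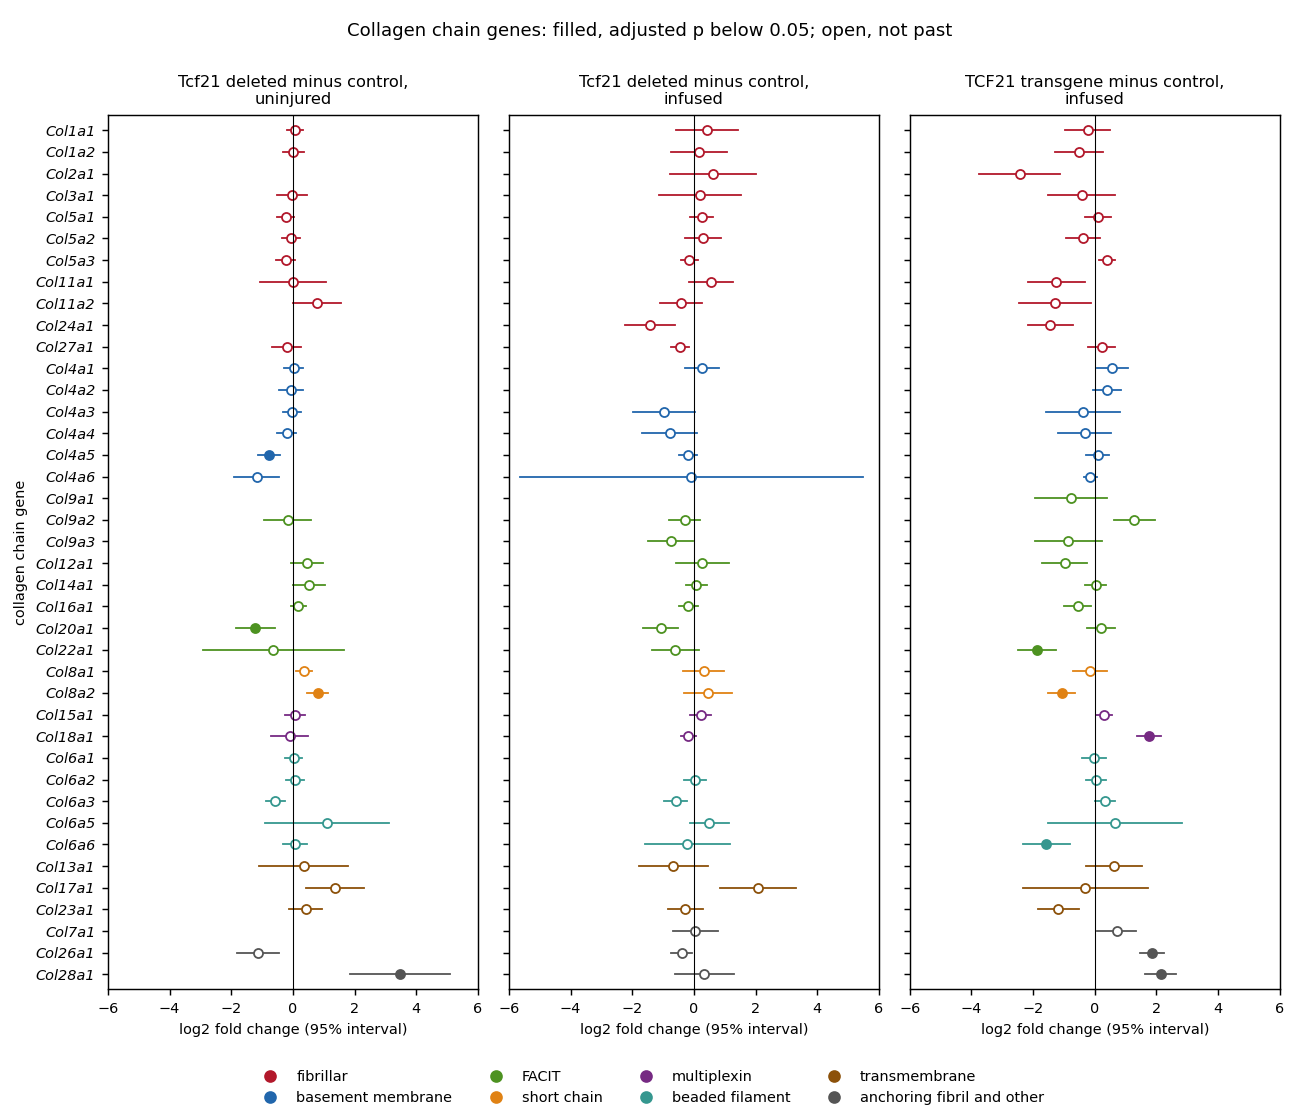
Log2 fold change (points) with its 95% interval (lines) for each tested collagen gene in the 3 comparisons, coloured by class; filled points are past the adjusted p threshold of 0.05. Filled points number 4, 0 and 6 from left to right, and the fibrillar rows hold none.

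No fibrillar gene was called in any comparison. Col1a1, which encodes the more abundant chain of type I collagen, held 88859, 105420 and 100352 normalized counts in uninjured controls and 98900, 91277 and 118101 after deletion. Under infusion the controls held 593275, 614754 and 672282 and the deleted libraries 733980 and 960990. With the transgene it was 511511 and 590702, against 627811, 766929 and 560338. The deleted libraries lay above their controls only under infusion, and elsewhere the groups overlapped. The log2 fold changes were 0.06 (95% interval -0.21 to 0.33), 0.42 (-0.58 to 1.42) and -0.23 (-0.96 to 0.49).

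Col1a2, the partner chain of type I, showed 0.01 (-0.34 to 0.36), 0.16 (-0.76 to 1.07) and -0.51 (-1.29 to 0.26) in the same order. With the transgene it held 491371 and 557010, both below the controls at 768693, 903686 and 600359. Col3a1 showed -0.03 (-0.52 to 0.46), 0.20 (-1.13 to 1.52) and -0.43 (-1.53 to 0.67). The groups of Col3a1 overlapped in uninjured deletion, and its intervals in both infused comparisons spanned over 2 log2 units.

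Among the type V chains, which start type I fibrils, Col5a1 held 60259 and 69112 after infused deletion against 50473, 55208 and 56836 in controls, and 86954 and 86484 with the transgene inside its control range of 66169 to 92248. Col5a3, a chain of a less common type V trimer, held 22285 and 26214 with the transgene, above its controls at 17487, 17855 and 19874, and 12756 and 12851 after infused deletion, below 15724, 13886 and 13094. The log2 fold change of Col5a3 was 0.40 (SE 0.113, adjusted p = 0.110) with gain and -0.15 (SE 0.114, adjusted p = 0.550) with infused deletion. The difference between both was 0.54 (SE 0.158, adjusted p = 0.112). Col5a2 overlapped between groups in all 3 comparisons, with log2 fold changes of -0.07, 0.30 and -0.39.

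Several minor fibrillar chains lay lower with the transgene, none past the threshold. Col11a1, a type XI chain, held 1111 and 2662 normalized counts with the transgene against 4465, 5502 and 2792 in controls (log2 fold change -1.25, SE 0.393, adjusted p = 0.135). Col2a1, the chain of cartilage collagen II, held 50.7 and 52.0 against 355, 525 and 120 (-2.44, SE 0.559, adjusted p = 0.0603). Col24a1, a minor fibrillar chain, held 49.5 and 69.3 against 162, 214 and 119 (-1.44, SE 0.316, adjusted p = 0.0538). Both transgene libraries were below all 3 controls for each of these genes, and control 3 was the lowest control each time. Postn, a marker of activated fibroblasts, was also lowest in that control (539447 against 803040 and 837243), while the transgene libraries held 733887 and 746592, and its part in these differences was not tested. Col24a1 was lower after infused deletion as well, at 26.3 and 36.0 against 60.9, 112 and 86.9 (-1.42, SE 0.340, adjusted p = 0.143). Over the class, 8 of 11 fibrillar genes lay below 0 with gain (median -0.43) and 7 of 11 above 0 with infused deletion (median 0.20). Of all genes tested, 51% lay above 0 with gain and 50% with infused deletion. Col27a1, also a minor fibrillar chain, held 430 and 398 after infused deletion against 594, 565 and 538 (-0.45, adjusted p = 0.162). With gain its groups overlapped and its log2 fold change was above 0 (0.23, adjusted p = 0.549). Col11a2, the second type XI chain, was 92.6 ± 28.6 against 51.6 ± 3.26 after uninjured deletion (SD, n = 3 and 3) and 84.5 ± 64.8 against 178 ± 42.6 with gain (n = 2 and 3), neither past the threshold.

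In the basement membrane class 1 gene was called, Col4a5 in uninjured fibroblasts. Type IV chains are encoded in 3 head-to-head pairs, whose starts lie 21 bases apart for Col4a1 and Col4a2 (chromosome 8), 72 for Col4a3 and Col4a4 (chromosome 1) and 1309 for Col4a5 and Col4a6 (chromosome X). The stretches just before the starts of the third pair are shown because both genes were lower after uninjured deletion. They come from the RefSeq promoter table (GRCm38.p6), cut where an annotated exon begins. Capitals mark E-boxes, the CANNTG motif that reads the same on both strands and that basic helix-loop-helix factors recognise.
Col4a5, plus strand, chrX:141475169-141475384: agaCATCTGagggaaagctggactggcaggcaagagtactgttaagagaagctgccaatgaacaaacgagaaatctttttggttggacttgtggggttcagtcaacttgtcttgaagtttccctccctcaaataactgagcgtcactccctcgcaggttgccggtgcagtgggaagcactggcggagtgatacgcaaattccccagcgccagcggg
Col4a6, minus strand, chrX:141474077-141474326: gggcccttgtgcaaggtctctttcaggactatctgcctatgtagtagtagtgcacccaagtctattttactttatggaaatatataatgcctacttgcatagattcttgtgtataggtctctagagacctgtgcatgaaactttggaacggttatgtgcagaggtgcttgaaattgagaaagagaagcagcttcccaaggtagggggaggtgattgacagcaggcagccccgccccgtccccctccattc
The Col4a5 stretch holds 1 E-box and the Col4a6 stretch 0. Of 36 promoter windows of 33 collagen genes with an entry, 18 (50%) hold an E-box, against 66.2% of all 32851 windows of the same length. The narrower motif CAGCTG, which is contained in CANNTG, stands in 6 (16.7%) against 13.0%.

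Col4a5 (X:141475385-141689234, plus strand, GRCm38) held 2508, 2212 and 2979 normalized counts in uninjured deleted libraries against 3969, 5598 and 3788 in controls. All deleted libraries lay below all controls, and the gene fell 1.72-fold (log2 fold change -0.78, SE 0.161, adjusted p = 0.0393). Its neighbour Col4a6 held 482, 276 and 643 against 802, 1462 and 853, also without overlap, and missed the threshold (-1.18, SE 0.322, adjusted p = 0.0805). Under infusion the groups of Col4a5 overlapped, at 4933 and 5642 against 5308, 6549 and 6108, and with gain its log2 fold change was 0.09 (95% interval -0.27 to 0.45). The difference of the deletion effect with and without infusion was 0.61 for Col4a5 (95% interval 0.09 to 1.12, adjusted p = 0.378). Col4a6 was at 0 in 1 control and 1 deleted library of the infused deletion table, where its gene model is in doubt, and its 95% interval there ran from -5.64 to 5.48. The Col4a5 call held in 1 of 6 fits that left out a library, the one without deleted library 3, and the adjusted p was 0.0504 to 0.126 in the other 5. It was also lost without a variance trend (adjusted p = 0.159).

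Col4a1, the main type IV chain together with Col4a2, held 231176 and 246513 with the transgene, above its controls at 159053, 194168 and 134838 (0.57, SE 0.215, adjusted p = 0.198). Col4a2 followed it, at 111224 and 112884 against 82482, 104653 and 69573 (0.41, SE 0.194, adjusted p = 0.293). Neither passed the threshold, and in uninjured deletion their groups overlapped (0.02 and -0.07). The restricted chains Col4a3 and Col4a4 overlapped between groups in uninjured deletion, infused deletion and gain. Under infused deletion they stood at -0.97 (adjusted p = 0.319) and -0.79 (adjusted p = 0.358).

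Among markers of mural cells, which also make type IV collagen, 3 of 10 fell after uninjured deletion (Cspg4 3.44-fold, Abcc9 1.68-fold and Kcnj8 1.44-fold), against 1.96% of all genes. The list summed to 28820 to 32670 in deleted libraries against 34060 to 38270 in controls. Endothelial markers, of another source of type IV collagen, summed to 12150 to 13760 against 15770 to 15920, with 0 of 6 tested markers called and a median log2 fold change of -0.53. The part of either list in the collagen results was not tested.

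Of the FACIT genes, Col20a1 fell in uninjured fibroblasts and Col22a1 fell with gain. Col20a1 (2:180986535-181018363, plus strand) held 142, 104 and 74.1 normalized counts in uninjured deleted libraries against 212, 276 and 244 in controls, a 2.33-fold fall (-1.22, SE 0.277, adjusted p = 0.0493). Under infusion it held 94.2 and 152 against 232, 287 and 245, a difference of similar size (-1.08, SE 0.242) that missed the threshold (adjusted p = 0.125). The deleted libraries were below all controls in both settings, and the transgene libraries, at 258 and 310, overlapped theirs (214 to 278). The uninjured call held in 1 of 6 fits that left out a library, and was lost with a pseudocount of 0.1 (adjusted p = 0.0526). It was also lost without the filter (adjusted p = 0.0527) and with quantile normalization (0.0557). The same held without a variance trend (0.133) and with replicate number as a block (0.0920).

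Col22a1 (15:71795795-72034227, minus strand), a FACIT known from tissue junctions, held 336 and 237 with the transgene against 1125, 1308 and 733 in controls. That was 3.63-fold lower and without overlap (-1.86, SE 0.263, adjusted p = 0.0148). Control 3 was again the lowest control. Without control 1 or transgene library 2 the call was lost, and it held in the other 3 of 5 such fits. It was also lost with all groups in one fit (adjusted p = 0.277) and without a variance trend (adjusted p = 0.0931). Deletion under infusion gave 1224 and 612 against 971, 1493 and 1550, which overlapped.

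Col9a2, a type IX chain that decorates cartilage fibrils, moved the other way with gain. It held 8357 and 8703 with the transgene against 3066, 5498 and 2523 in controls, 2.44-fold higher without overlap, and missed the threshold (1.29, adjusted p = 0.0580). The 2 chains that pair with it had lower means with the transgene, neither past the threshold. Col9a1 overlapped between groups, at 17.0 and 26.5 against 37.1, 59.8 and 23.1. Col9a3 did not overlap, at 38.7 and 35.5 against 54.3, 124 and 46.1. The highest of those values, 124, was far below any of Col9a2.

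Col12a1 and Col16a1, which associate with type I fibrils, were lower in both transgene libraries than in any control. Col12a1 held 8186 and 11279 against 23706, 23970 and 11979 (-0.98, adjusted p = 0.134), and Col16a1 23208 and 23863 against 35847, 42480 and 27108 (-0.55, adjusted p = 0.151). Col14a1, the FACIT transcript with the highest level per kilobase in each control group, did not pass in any comparison, with 0.53 (adjusted p = 0.225), 0.08 and 0.03. In uninjured deleted libraries it ranged from 15170 to 31886, against 13194 to 15994 in controls.

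**Figure D4:**
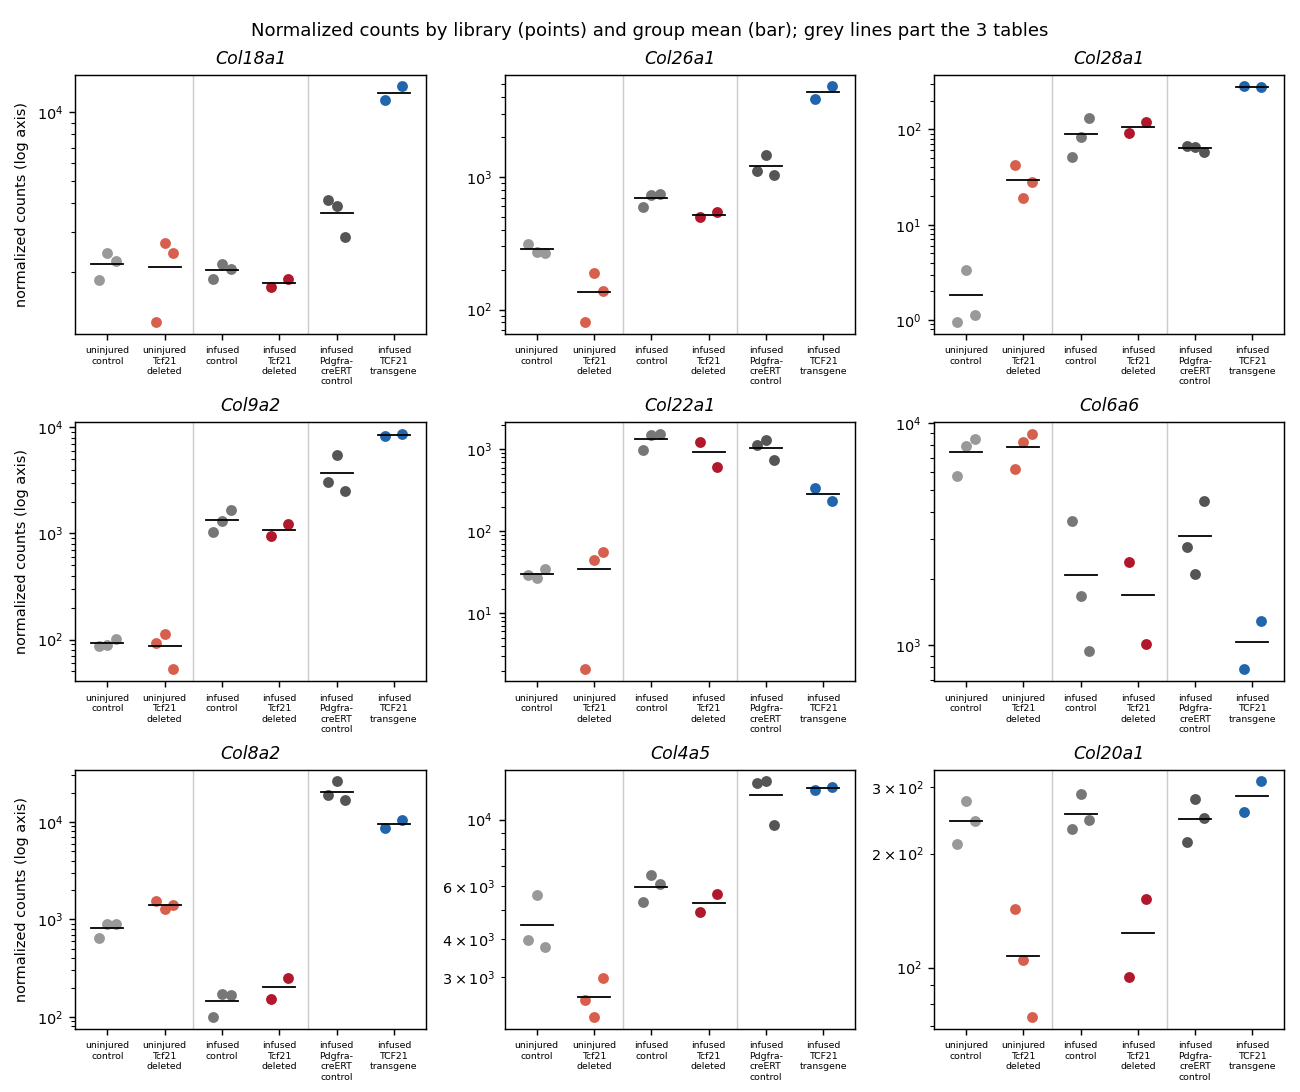
Normalized counts by library (points, log axis) and group mean (bars) for 9 collagen genes; grey lines part the 3 separately normalized tables. Col18a1, Col26a1, Col28a1 and Col9a2 are higher in both TCF21 transgene libraries than in their controls, Col22a1, Col6a6 and Col8a2 are lower, and Col4a5 and Col20a1 are lower in uninjured Tcf21-deleted libraries.

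In the short chain class, Col8a2 was called in opposite directions in 2 comparisons. Type VIII collagen forms hexagonal sheets, with Col8a1 and Col8a2 as its chains, and its mRNA is known to rise with vascular and cardiac remodelling. Col8a2 (4:126286793-126314330, plus strand) held 1534, 1281 and 1398 normalized counts in uninjured deleted libraries against 649.9, 891 and 894 in controls. It rose 1.74-fold without overlap (0.80, SE 0.146, adjusted p = 0.0276). With the transgene it held 8698 and 10591 against 18704, 26106 and 16830, a 2.10-fold fall without overlap (-1.07, SE 0.191, adjusted p = 0.0281). After infused deletion it held 154 and 250 against 100.1, 173 and 169, which overlapped (0.46, adjusted p = 0.517). The gain effect minus the infused deletion effect was -1.53 (SE 0.401, adjusted p = 0.0816), a contrast that assumes the same Col8a2 transcripts in both tables. Both calls held in 2 fits that left out a library, of 6 in uninjured deletion and 5 in gain. Without a variance trend both were lost (adjusted p = 0.126 and 0.138).

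The stretch before the start of Col8a2 is shown because the gene was called in more than 1 comparison, and it holds 0 E-boxes.
Col8a2, plus strand, chr4:126286544-126286792: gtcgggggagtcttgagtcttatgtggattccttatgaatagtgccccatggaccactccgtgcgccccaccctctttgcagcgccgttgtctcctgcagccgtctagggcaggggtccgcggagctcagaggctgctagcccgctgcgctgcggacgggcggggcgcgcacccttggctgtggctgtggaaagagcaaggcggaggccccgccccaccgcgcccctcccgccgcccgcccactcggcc

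Col8a1 held 33587, 31874 and 25470 in uninjured deleted libraries, all above controls at 21247, 23718 and 24886, and missed the threshold (0.37, SE 0.115, adjusted p = 0.109). It overlapped between groups in both infused comparisons (0.32 and -0.16). Col10a1, the chain of hypertrophic cartilage, was listed in the infused deletion table only, at 0 to 11.6 normalized counts.

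Of the multiplexins, Col18a1 rose with gain and its relative Col15a1 did not pass. Col18a1 (10:77052178-77166548, minus strand) encodes the basement membrane proteoglycan whose end fragment is endostatin. It held 11318 and 13001 normalized counts with the transgene against 4133, 3908 and 2860 in controls. Both transgene libraries were far above all controls, 3.38-fold higher by the fit (1.76, SE 0.163, adjusted p = 0.0052). After deletion it held 1719 and 1861 against 1874, 2179 and 2062 under infusion, and 1212, 2694 and 2424 against 1845, 2432 and 2225 without. The infused deleted libraries lay below their controls and the uninjured ones spanned theirs, with log2 fold changes of -0.19 (adjusted p = 0.416) and -0.11 (adjusted p = 0.844). The gain effect exceeded the infused deletion effect by 1.94 (SE 0.211, adjusted p = 0.00142). The gain call held in 5 of 5 fits that left out a library, and was lost without a variance trend.
Col18a1, minus strand, chr10:77166549-77166780: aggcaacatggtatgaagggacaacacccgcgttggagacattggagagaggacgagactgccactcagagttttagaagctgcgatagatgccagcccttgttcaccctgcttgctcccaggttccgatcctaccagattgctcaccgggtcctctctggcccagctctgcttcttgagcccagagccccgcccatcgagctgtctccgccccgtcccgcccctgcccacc
This stretch before the annotated start of Col18a1, shown because the gene was called in 2 contrasts, holds 0 E-boxes.

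Col15a1 held 12564 and 15462 with the transgene against 11360, 12002 and 10666, also without overlap but by less (0.30, SE 0.114, adjusted p = 0.203). In both deletion comparisons its groups overlapped (0.07 and 0.22). Markers of endothelial cells, which express Col18a1 too, summed to 5226 to 6561 with the transgene against 8000 to 11100 in controls. Most of that sum was Tek, at 5315 ± 526 against 9289 ± 1490 (SD, n = 2 and 3), the 1 called of 9 tested markers, which fell 1.74-fold. The median log2 fold change of the 9 was 0.23, on the other side of 0 from the sum. The part of these cells in the Col18a1 result was not tested.

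Among the beaded filament chains, Col6a6 fell with gain. Col6a6 (9:105687809-105828160, minus strand), one of the long alternative type VI chains, held 780 and 1282 with the transgene against 2759, 2102 and 4483 in controls. It was 2.96-fold lower without overlap (-1.57, SE 0.325, adjusted p = 0.0452), and the call held in 2 of 5 fits that left out a library. The call was also lost with all groups in one fit (adjusted p = 0.0872) and without a variance trend (adjusted p = 0.175). In infused deletion its libraries ran from 942 to 3635 in controls and from 1014 to 2367 after deletion, and in uninjured hearts from 5769 to 8951 over all 6.

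Col6a3 (1:90765923-90843971, minus strand), the third chain of the common type VI trimer, held 24023, 29960 and 23090 in uninjured deleted libraries against 32097, 39094 and 43440 in controls. Under infusion it held 36682 and 42774 against 60512, 65319 and 54070, and with the transgene 78252 and 93412 against 66654, 68946 and 68174. It was thus lower without overlap in both deletions and higher without overlap in gain. The log2 fold changes were -0.57 (SE 0.134, adjusted p = 0.0536), -0.59 (SE 0.158, adjusted p = 0.167) and 0.33 (SE 0.137, adjusted p = 0.233), none past the threshold. The gain effect minus the infused deletion effect did pass, at 0.93 (SE 0.198, adjusted p = 0.0383), and held in 1 of 10 fits that left out a library, the one without infused Tcf21-MerCreMer control 3.

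The partners of Col6a3 in that trimer lay near 0 in the tables that list them. Col6a2 showed 0.07 (95% interval -0.22 to 0.35), 0.04 (-0.31 to 0.39) and 0.05 (-0.28 to 0.38), and Col6a1 0.03 (-0.25 to 0.30) in uninjured deletion and -0.02 (-0.42 to 0.38) in gain. Within a library and per kilobase, Col6a3 stood at 0.241 ± 0.0364 of Col6a2 in uninjured controls and 0.155 ± 0.0216 after deletion (SD, n = 3 and 3). Under infusion the ratio was 0.422 ± 0.0338 in controls (n = 3) and 0.273 ± 0.0433 after deletion (n = 2). With the transgene it was 0.380 ± 0.0271 (n = 2) against 0.312 ± 0.00664 (n = 3). Groups did not overlap in any of the 3, and the exact two-sided permutation p was 0.1 each time, the smallest these designs allow (adjusted p = 0.218 over the 24 ratio comparisons made).

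Most other ratios within a library also separated the infused groups, so a lack of overlap was common there. Col1a1 stood at 1.02 ± 0.0592 of Col1a2 in infused controls and 1.23 ± 0.0684 after deletion, and at 0.781 ± 0.0544 in Pdgfra-creERT controls and 0.948 ± 0.0124 with the transgene (n = 3 and 2 in each). The ratio was thus higher after infused deletion and with gain, with no overlap in either. In uninjured fibroblasts the same ratio was 0.657 ± 0.0258 and 0.685 ± 0.123 and overlapped. Col5a1 over Col5a2 was 0.850 ± 0.0492 with the transgene against 0.608 ± 0.0649, and Col18a1 over Col15a1 0.940 ± 0.0458 against 0.345 ± 0.0520. Each of these non-overlapping ratios had an exact permutation p of 0.1, and none passed after adjustment. Groups also did not overlap for Col3a1 over Col1a1 in both infused comparisons. The same held for Col4a3 over Col4a4 and Col18a1 over Col15a1 in infused deletion. In gain it held for Col4a1 over Col4a2 and Col4a5 over Col4a6.

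**Figure D5:**
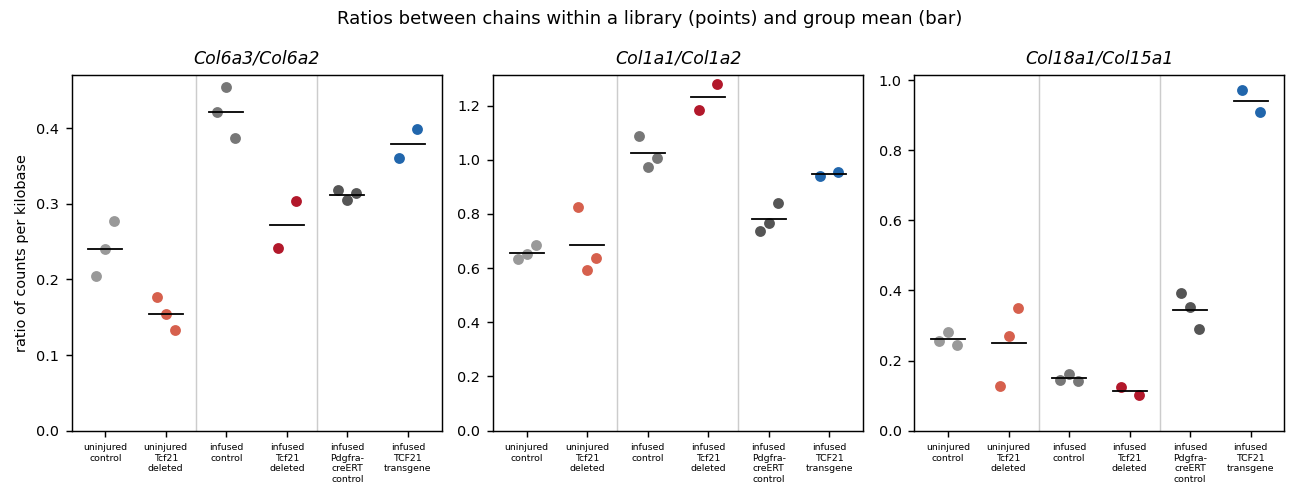
Ratio of normalized counts per kilobase between 2 chains within each library (points) and the group mean (bars); grey lines part the 3 tables. Col6a3 over Col6a2 is lower after deletion in both settings and higher with the transgene, Col1a1 over Col1a2 is higher in both infused treated groups, and Col18a1 over Col15a1 is 0.345 in controls and 0.940 with the transgene.

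Col6a5, a further long type VI chain, ranged from 35.4 to 692 in the uninjured table and from 56.8 to 583 in the gain table, with overlapping groups. After infused deletion it held 454.971 and 409.18 against 408.507, 217.905 and 313.529, a separation of under 1 normalized count between the nearest libraries (0.51, adjusted p = 0.385).

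No transmembrane collagen was called. Col17a1, the hemidesmosome collagen of epithelia, was low and higher after deletion in both settings without overlap: 61.7, 85.9 and 74.5 against 18.7, 45.6 and 25.6 without infusion (1.36, SE 0.418, adjusted p = 0.110), and 44.9 and 30.2 against 14.2, 5.89 and 5.78 with it (2.08, SE 0.514, adjusted p = 0.152). Under infusion its control mean of 8.62 was under the filter, so it was tested only through the deleted libraries. The groups of Col17a1 overlapped in gain. Col23a1 held 53.2 and 39.4 with the transgene against 120, 89.4 and 107 in controls (-1.18, adjusted p = 0.0719). Col13a1 ran from 6.9 to 52.5 over all libraries and Col25a1 from 0 to 10.6 in the tables that list it.

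In the last group, Col26a1 and Col28a1 rose with gain. Col26a1 (5:136741759-136883209, minus strand), a secreted collagen with an EMI domain, held 3893 and 4837 with the transgene against 1117, 1466 and 1029 in controls, 3.64-fold higher (1.87, SE 0.168, adjusted p = 0.00517). After deletion it held 80.8, 189 and 138 against 314, 273 and 267 without infusion (-1.14, SE 0.303, adjusted p = 0.0739) and 495 and 546 against 595, 730 and 743 with it (-0.40, SE 0.139, adjusted p = 0.245). It was lower without overlap in both deletions and higher without overlap in gain, as Col6a3 was. The gain effect exceeded the infused deletion effect by 2.26 (SE 0.237, adjusted p = 0.00118). The gain call held in 5 of 5 fits that left out a library and was lost without a variance trend.

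Col28a1 (6:7997808-8192617, minus strand), a von Willebrand domain collagen known from peripheral nerve, held 282 and 279 with the transgene against 66.3, 65.0 and 58.0 in controls. The transgene libraries were 4.40-fold higher by the fit (2.14, SE 0.217, adjusted p = 0.0066). In uninjured hearts it held 41.9, 19.0 and 27.9 after deletion against 0.959, 3.34 and 1.14 in controls, and was called as well (3.47, SE 0.716, adjusted p = 0.0393). The control mean was 1.81, under the filter of 10, so Col28a1 was tested there only because the deleted libraries were high. The size of that rise on the log2 scale was 1.71 with a pseudocount of 10, 4.09 with 0.1 and 4.10 with quantile normalization, and the call held in 0 of 6 fits that left out a library. Under infusion its libraries ran from 51.6 to 131 in controls and held 92.0 and 119 after deletion. The gain call held in 4 of 5 such fits and was lost without transgene library 2 (adjusted p = 0.0511). Summed Schwann cell markers, of the cells around peripheral nerve, overlapped in the uninjured table (3843 to 4434 against 4047 to 5054) and were lower with the transgene (2169 to 2378 against 2431 to 2840), with 4 of 8 markers listed in each. Their part in the Col28a1 result was not tested.
Col28a1, minus strand, chr6:8192618-8192867: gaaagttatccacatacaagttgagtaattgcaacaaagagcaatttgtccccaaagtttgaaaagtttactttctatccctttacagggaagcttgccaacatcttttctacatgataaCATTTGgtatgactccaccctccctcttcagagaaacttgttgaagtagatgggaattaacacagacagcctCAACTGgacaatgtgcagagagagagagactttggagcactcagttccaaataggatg
This stretch, shown because Col28a1 was called in 2 comparisons, holds 2 E-boxes, at 130 and 58 bases before the annotated start.

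Col7a1, the anchoring fibril collagen, held 782 and 1334 with the transgene against 688, 746 and 477 in controls, without overlap (0.71, adjusted p = 0.198). After infused deletion its groups overlapped (0.04), and in uninjured fibroblasts it did not exceed 17.7.

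The deletion effect with infusion was set against that without it for 33 collagen genes in one fit of the 4 deletion groups, and 0 passed, against 0.149% of all genes. At an unadjusted p under 0.05 there were 5, and 1 passed with replicate number as a block and 1 with all groups in one fit. The gain effect was set against the infused deletion effect for 37 genes, with no shared controls, and 3 passed (8.11%), against 2.93% of all genes. Those were Col18a1, Col26a1 and Col6a3, each with the gain effect above the deletion effect, against 1.71% of all genes in that direction.

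Genes that build, assemble and break down collagen were taken from 8 lists, chosen with earlier results of these data known. In uninjured fibroblasts 1.63% of all genes rose and 1.96% fell, a share under 1 gene in each of these lists. Here 1 of 15 hydroxylation and glycosylation genes rose, P3h2 (a prolyl 3-hydroxylase, 1.67-fold), and 1 of 11 chaperone and export genes, Serpinh1 (the collagen chaperone HSP47). Serpinh1 stood at 95686 ± 15879.6 against 60207 ± 4829 normalized counts (SD, n = 3 and 3; adjusted p = 0.0309). Of 11 basement membrane partners of type IV collagen 2 fell, the laminin chains Lama4 (1.54-fold) and Lama5. Lama5 held 1.94 ± 0.163 against 31.9 ± 18.4 normalized counts. Its mean after deletion was under the filter, so Lama5 was tested only through its control libraries, which spread widely around their mean. Of 13 breakdown genes 1 fell, the matrix metalloproteinase Mmp3, to 555 ± 274 from 5352 ± 1101, and of 19 fibril-associated genes 1 rose, Comp (2.14-fold). Proteinase, crosslinking and receptor lists had 0 called of 7, 6 and 9.

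Under infusion, deletion changed 1 gene of all 8 lists, Fmod, against 0.912% of all genes. Fibromodulin binds type I fibrils, and its transcript was 13984 ± 779 against 37714 ± 7369 normalized counts (SD, n = 2 and 3), 2.66-fold lower (adjusted p = 0.0236).

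With the transgene, 5 of 19 fibril-associated genes fell and 0 rose, against 2.57% of all genes that fell and 1.57% that rose, with a list median of -0.69 on the log2 scale beside 0.0066 over all genes. These were Fmod (4.98-fold), Abi3bp (3.28-fold), Comp (3.18-fold), Tgfbi (2.01-fold) and Ogn (1.84-fold), all secreted matrix proteins. Because the list was chosen with earlier results of these data known, its share beside that of all genes is a description and not an independent test. Read against the same 2.57%, 2 of 15 hydroxylation and glycosylation genes fell, Colgalt2 (a collagen galactosyltransferase, 2.38-fold) and P4ha2 (a prolyl 4-hydroxylase subunit, 1.60-fold). Of 10 receptors 1 fell, Itga11, whose integrin binds type I collagen (2.76-fold, adjusted p = 0.00242). Of 16 breakdown genes 2 fell, the proteinase inhibitor Timp3 (2.53-fold) and the fibroblast protease Fap (1.86-fold). The chaperone, proteinase, crosslinking and type IV partner lists had 0 called of 11, 8, 6 and 11. Comp thus rose after uninjured deletion and fell with gain, as Col8a2 did, and Fmod was lower in both infused deletion and gain.

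The counts of called collagen genes moved with single libraries. Without any 1 of the 3 uninjured controls the uninjured count was 0, and without deleted library 1, 2 or 3 it was 3, 3 and 2. In the gain comparison it ran from 2 without transgene library 2 to 10 without control 3, and was 3 without control 1.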

How the data were processed

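Sorted fibroblast RNA was extracted with the miRNeasy micro kit and amplified with SMART-seq V4, per the labels' protocols. The authors deposited a normalized signal in 3 tables: estimated counts, scaled within each table. The submitters' processing notes name kallisto, DESeq2 and GRCm38; their versions, and the gene models used, are unknown: not given in the sources used here. Low values lay within 0.03 of whole steps in only 37.3% to 67.5% of cases, so whole reads could not be recovered and count models were not used.

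Genes whose table mean was at least 10 entered limma 3.58.1 (R 4.3.3, variance trend, two-sided) as log2(value + 1), with only the groups compared in a fit and Benjamini-Hochberg adjustment over all genes tested. This scale understates changes of low genes. Differences between effects were interaction contrasts. Ratios between chains were compared by exact permutation. Transcript lengths and positions come from GENCODE vM21 (GRCm38), and promoter stretches from RefSeq (GRCm38.p6), which held 33 of 42 members. The tests were checked on simulated data.

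The members, classes and gene lists were chosen with earlier results of these data known. The rule gave values by library for members past the threshold, for a panel of 19 common chains and for the 5 largest changes of each comparison with a mean of at least 50. Values of further members were chosen after they were seen. Pathway genes are named where past the threshold, at most 4 a list and comparison, except that Tgfbi was added to complete a count of 5. Alternatives varied the pseudocount, filter, scaling, variance model, library weights, replicate block, samples in the fit and genes at unlike levels, and left out each library in turn.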

Additional observations from a re-analysis of the deposited data

Results flagged for a closer look

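For 3 collagen genes the effect of TCF21 gain differed from that of Tcf21 deletion under the same infusion, by the limma interaction contrast over both tables (adjusted p below 0.05 over all 14319 genes tested). The difference on the log2 scale was 1.94 for Col18a1 (adjusted p = 0.00142), 2.26 for Col26a1 (adjusted p = 0.00118) and 0.93 for Col6a3 (adjusted p = 0.0383). Each gene was higher than its controls in 2 of 2 transgene libraries and lower than its controls in 2 of 2 deleted ones. These are the values that the contrast used, and groups did not overlap for 39.3% of all genes in gain and 35.0% in infused deletion. The infused deletion effect passed for none of them in limma (adjusted p = 0.416 for Col18a1, 0.245 for Col26a1 and 0.167 for Col6a3). The gain effect of Col6a3 did not pass either (adjusted p = 0.233). The differences for Col18a1 and Col26a1 passed in 10 of 10 fits that left out a library, and that for Col6a3 in 1 of 10.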

How the results depend on the processing

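No called collagen gene changed direction under any setting tried. The called collagen genes numbered 4 (uninjured deletion), 0 (infused deletion) and 6 (gain), with 0 and 3 for the differences of deletion with and without infusion and of gain and infused deletion. In uninjured deletion the count was 2 with a pseudocount of 0.1 and 1 without a variance trend, and in gain it was 1 without a variance trend and 11 with library weights. The difference of gain and infused deletion gave 7 with library weights. With all groups in one fit, infused deletion and the difference of the deletion effects gave 1 each. Leaving out each library in turn gave 0 to 3 collagen genes in uninjured deletion, 2 to 10 in gain, 2 to 3 for gain against infused deletion, and 0 throughout for both others. Quantile or trimmed mean scaling, a minimum mean of 50 and a pseudocount of 10 kept each count within 1.5 times. The cause of these shifts was not tested. The median collagen log2 fold change in uninjured deletion was 0.16 without deleted library 1. Over all genes the counts ran from 94 to 1106 (uninjured deletion), 72 to 1462 (infused deletion) and 25 to 1842 (gain) across settings, beside 557, 135 and 637.

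Replicate numbers are shared between groups, and the numbers were not taken to pair the libraries. Deviations of same-numbered libraries from their group means correlated at -0.0538 to 0.0254 in uninjured deletion. The values were -0.0425 and 0.176 in infused deletion and 0.0622 and 0.0953 in gain. With 2 treated libraries the deviations mirror each other, so the infused correlations cannot decide whether the numbers pair libraries. With replicate number as a block the collagen counts were 0 (uninjured deletion), 8 (infused deletion) and 18 (gain), with 1 for the difference of the deletion effects and 13 for that of gain and infused deletion. In gain the 6 genes called without the block were among the 18. In both infused comparisons control 3 has no treated library of its number, so the block takes it out of the effect. Few libraries are then left to estimate the spread. Leaving out control 3 without a block gave 0 (infused deletion) and 10 (gain). In uninjured deletion not every library correlated best with its own number. In infused deletion, deleted library 2 correlated best with control 3 (0.23). In gain each transgene library correlated best with the control of its own number.

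With 2 libraries in each infused treated group, intervals are wide, and genes under a mean of 10 were not tested. Depth in reads is unknown, so no counting error can be given.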
